A study of Mus musculus with 7 samples.

Results

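Semaphorins, plexins and neuropilins were followed as a family of 31 genes of the 26286 in the deposited count table. They were taken by gene symbol, with at least 1 read in any library: 20 semaphorins, 9 plexins and 2 neuropilins. The libraries were polyA RNA-seq of cortical neurons from brains of C57BL/6 mouse embryos at E16.5, all labelled male, from 3 wild type and 4 KAT7 mutant mice. KAT7, of the MYST family, acetylates histones. The labels give neither the allele that makes the mutant, a Cre driver, nor how the neurons were isolated. Whether the mutation is confined to neurons is therefore not known here.

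Semaphorins are guidance cues that steer growing axons and migrating neurons. The secreted class mostly binds a neuropilin, which holds the ligand, and a plexin, which carries the signal into the cell through its GTPase-activating domain. Most membrane-bound semaphorins bind a plexin directly. In the developing cortex these genes are known for the guidance of callosal and corticofugal axons, the radial migration of cortical neurons and the sorting of interneurons that enter the cortex.

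Libraries held 8272487 to 8813060 counts, and within a genotype every pair differed beyond what counting allows (chi-square per gene 2.06 to 3.67). Kat7 stood at 96.6 to 103 CPM (reads of a gene scaled to a common library total) in wild type and at 0.350 to 1.22 CPM in KAT7 mutant libraries. The first principal component of log CPM (60.8% of the variance) set the genotypes apart. On the second (9.8%) KAT7 mutant replicate 1 was alone, at 23.1 where the rest lay between -9.8 and 1.6. The pan-neuronal and cortical genes chosen as markers were abundant, with a summed level of 9559 to 10260 CPM in wild type and 9567 to 10380 CPM in KAT7 mutant libraries. Glial, vascular and interneuron markers were also present, as given below.

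The largest differences in the family ran in both directions, often between close relatives. Sema3c, Sema6d, Sema5a and Nrp1 fell in KAT7 mutant neurons, and Plxnd1, Sema5b, Plxnc1 and Nrp2 rose. The promoters of both neuropilins and of the pair of plexins that rose most are shown here because these genes moved furthest among the receptors. The sequences are RefSeq windows of GRCm38.p6, from 250 to 51 bases before the start of transcription, written 5′ to 3′ in the direction of the gene. Capitals mark GGGCGG on either strand, the core of the GC box that Sp-family factors are known to bind.
Nrp1, chr8:128358823-128359022, plus strand: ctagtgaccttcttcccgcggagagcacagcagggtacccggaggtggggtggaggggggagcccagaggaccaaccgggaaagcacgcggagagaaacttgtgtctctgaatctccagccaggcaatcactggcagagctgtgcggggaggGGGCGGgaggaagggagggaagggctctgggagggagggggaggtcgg
Nrp2, chr1:62703067-62703266, plus strand: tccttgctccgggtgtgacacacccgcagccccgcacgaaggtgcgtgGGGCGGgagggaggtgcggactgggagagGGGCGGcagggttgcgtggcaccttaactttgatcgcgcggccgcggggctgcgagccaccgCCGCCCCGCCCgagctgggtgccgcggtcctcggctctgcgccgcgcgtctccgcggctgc
Plxnd1, chr6:115995056-115995255, minus strand: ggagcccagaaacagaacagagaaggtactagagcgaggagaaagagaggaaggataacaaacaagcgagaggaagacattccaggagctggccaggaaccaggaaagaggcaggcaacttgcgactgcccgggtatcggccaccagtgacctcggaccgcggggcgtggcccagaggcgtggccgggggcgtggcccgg
Plxnc1, chr10:94944896-94945095, minus strand: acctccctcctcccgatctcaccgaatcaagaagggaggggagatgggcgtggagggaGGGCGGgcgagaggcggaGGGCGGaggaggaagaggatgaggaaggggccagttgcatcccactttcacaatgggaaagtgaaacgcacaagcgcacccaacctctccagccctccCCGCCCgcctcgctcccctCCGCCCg
In these 200 bases the motif occurred 1 time for Nrp1, 4 times for Nrp2, 0 times for Plxnd1 and 4 times for Plxnc1. The Nrp2 stretch was the richest in CpG, with 28 against 9 for Nrp1, 13 for Plxnd1 and 14 for Plxnc1. In the full 250 bases before the start, GGGCGG occurred 1 time for Nrp1, 5 times for Nrp2, 1 time for Plxnd1 and 4 times for Plxnc1.

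RefSeq windows of the 250 bases before the start were held for 26 of the 31 genes, some with several starts. GGGCGG on either strand was found for 21 of the 26. It was in 73.0% of the 37 windows, against 57.6% of the windows of all tested genes and 32.7% of all windows. TATAAA on either strand, the TATA box, was in 0.0% of the family's windows, 6.2% of those of tested genes and 12.4% of all. CCAAT on either strand was in 18.9%, 35.0% and 33.8%, and CANNTG, the E-box, in 51.4%, 56.9% and 66.2%. By call, GGGCGG was in 71.4% of the 7 windows of members called higher, 75.0% of the 8 of those called lower and 78.9% of the 19 of those not called. The median CpG number in the same windows was 18 for higher, 12 for lower and 12 for not called. It was 13 in all windows of the family, 16 in those of tested genes and 6 in all windows. A relation of these promoter features to the direction of change was not tested.

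A total of 27 members passed the filter on low counts and were tested. With the quasi-likelihood test of edgeR and Benjamini-Hochberg adjustment over all 13681 tested genes, 7 members were higher in KAT7 mutant, 8 were lower and 12 were not called. That is 55.6% of the tested members, against 28.9% of all tested genes (13.1% higher and 15.8% lower). All 15 called members had a mean of at least 20 CPM. Among the 25 members at that level 60.0% were called, against 31.9% of the 7447 genes at that level (17.8% higher and 14.1% lower). For 8 members the call came with a log2 fold change of at least 0.5 in size, a class that held 12.6% of all tested genes. The genotypes did not overlap in CPM for 13 tested members, and for 35.3% of all tested genes. These shares describe the family. No test of the list was made.

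Both ligands and receptors had called members in each direction. Of 17 tested semaphorins 3 were higher, 5 lower and 9 not called, with a median log2 fold change of -0.08. Of 10 tested plexins and neuropilins 4 were higher, 3 lower and 3 not called, with a median of 0.01. The median of all tested genes was 0.00. The median size of the change, whatever its sign, was 0.20 for semaphorins, 0.32 for plexins and neuropilins and 0.16 for all tested genes. Without KAT7 mutant replicate 1 the number of semaphorins called higher was 5. The semaphorin median lay between -0.14 and -0.01 with 1 library left out: it was -0.01 when the wild type or the KAT7 mutant library numbered 3 was left out, -0.03 without wild type replicate 1, -0.04 without KAT7 mutant replicate 1 and -0.14 without KAT7 mutant replicate 4.

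**Figure D1:**
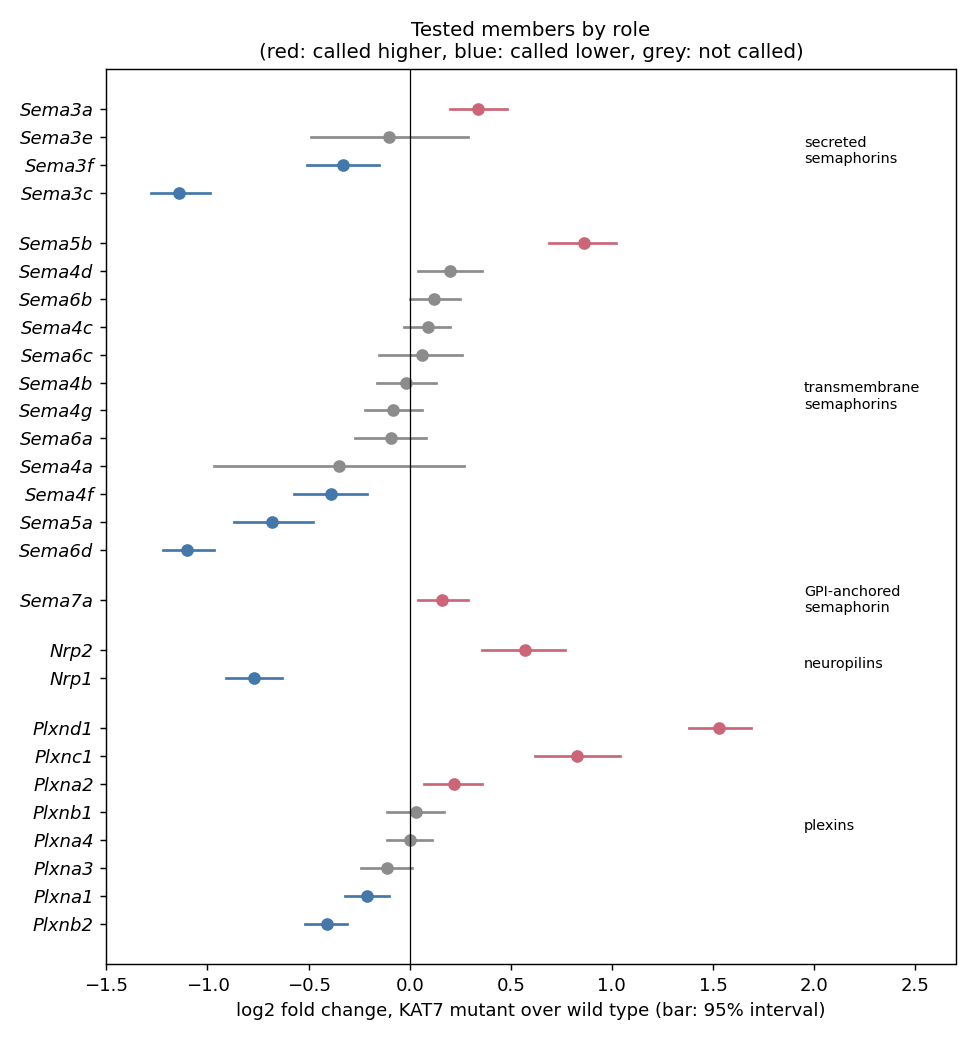
Log2 fold change of each tested member (x axis, KAT7 mutant over wild type, with the 95% interval as a bar), grouped by role. Plxnd1 lies farthest to the right at 1.53 and Sema3c and Sema6d farthest to the left at -1.14 and -1.10, and 12 members are grey, that is, not called.

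Among the secreted semaphorins, Sema3c (Entrez 20348), a ligand of both neuropilins known from axon growth and vascular development, fell by more than 2-fold. Its level was 505.5, 593.2 and 519.2 CPM in the wild type libraries (replicates 1 to 3, in that order throughout) and 212.7, 250.0, 274.3 and 243.4 CPM in the KAT7 mutant libraries (replicates 1 to 4). Every mutant library lay below every wild type library, and the highest mutant value was well under the lowest wild type value. The log2 fold change was -1.14 ± 0.07 (SE), that is 2.20-fold lower, with an edgeR adjusted p of 1.69e-10. Here and for every gene below, fewer cells of a type and less RNA per cell cannot be told apart in bulk samples.

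Sema3a (Entrez 20346), the classical repellent that acts through Nrp1, moved the other way. It stood at 53.2, 60.9 and 57.6 CPM in wild type and at 70.3, 71.1, 79.3 and 69.0 CPM in KAT7 mutant libraries. The groups did not overlap, and the log2 fold change was 0.34 ± 0.07 (SE, edgeR adjusted p = 0.000789). Sema3f, whose main neuropilin is Nrp2, fell from 48.9 CPM (n = 3, SD 2.73) to 39.0 CPM (n = 4, SD 5.12), a log2 fold change of -0.33 ± 0.09 (SE, edgeR adjusted p = 0.00744).

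Sema3e, which binds Plxnd1 without a neuropilin, was the only tested secreted semaphorin that was not called. It was scarce, at 5.82, 5.61 and 4.87 CPM in wild type and 6.08, 4.75, 3.66 and 5.75 CPM in KAT7 mutant libraries. The groups overlapped, and the 95% interval of its log2 fold change ran from -0.49 to 0.29 around -0.10. Sema3b, Sema3d and Sema3g were under the filter. Sema3b had 29 reads summed over wild type and 22 over KAT7 mutant libraries, a ratio of levels of 0.578 (exact interval at 95%, 0.316 to 1.04). Sema3d had 26 and 16 reads, a ratio of 0.469 (0.235 to 0.907). These intervals cover counting error only. Sema3g had 0 reads in the wild type libraries and 2 in all in the mutant ones, which is under the limit of 3 counts that 0 allows.

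Per kilobase of gene length, Sema3c was the most abundant semaphorin in wild type libraries, at 109 CPM per kilobase. The make-up of the secreted class also differed between genotypes. Sema3c made up 80.0% to 82.4% of the summed level per kilobase of secreted semaphorins in wild type and 61.9% to 69.8% in KAT7 mutant libraries. Sema3a made up 7.06% to 7.41% and 15.9% to 17.1%. The summed level of the secreted class was 134 CPM per kilobase (n = 3, SD 9.93) in wild type and 74.2 CPM per kilobase (n = 4, SD 4.24) in KAT7 mutant libraries. The membrane-bound semaphorins summed to 227 (SD 4.95) and 228 (SD 13.8) CPM per kilobase in wild type and KAT7 mutant libraries.

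**Figure D2:**
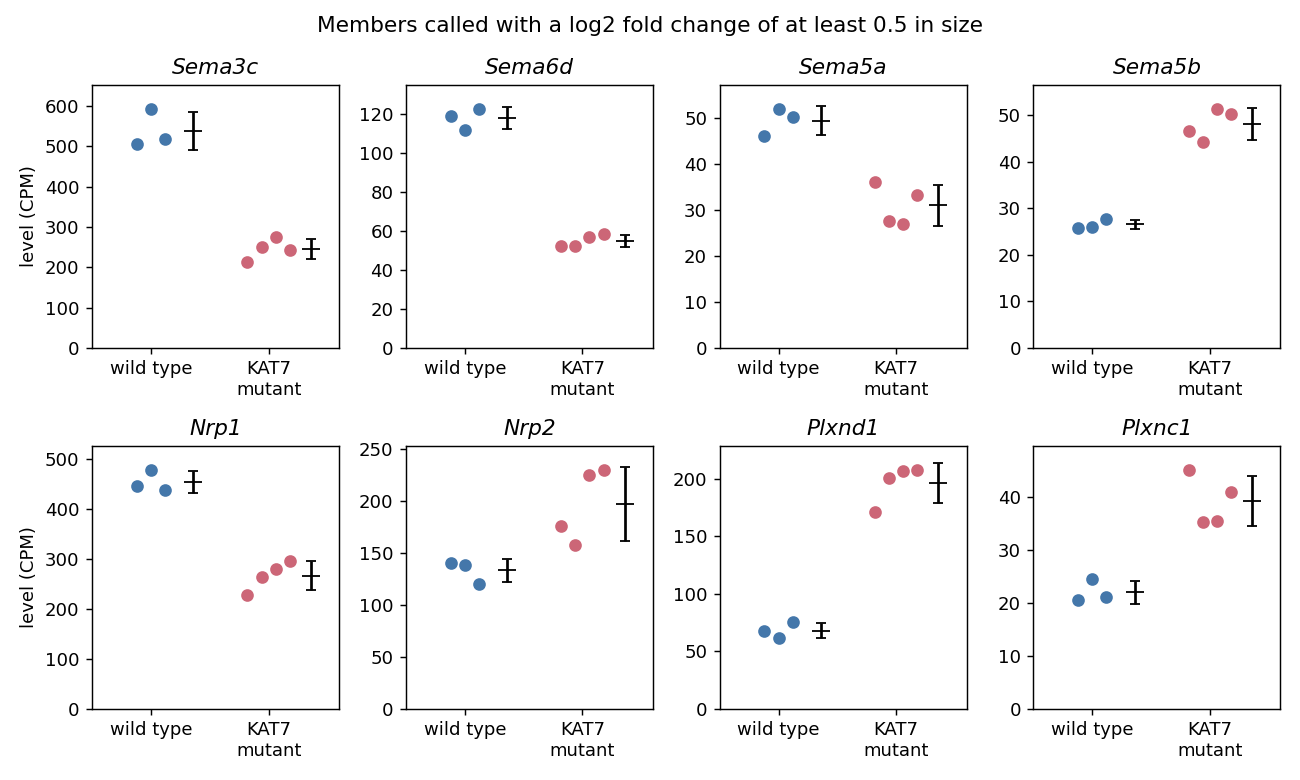
Level in CPM (y axis, from 0) of the 8 members called with a log2 fold change of at least 0.5 in size, with a point for each library and the mean ± SD beside each genotype (3 wild type, 4 KAT7 mutant). In every panel the points of the genotypes do not overlap. Relative to the wild type mean the difference is largest for Plxnd1, at 61.6 to 75.0 CPM against 171.3 to 208.2 CPM.

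Of the membrane-bound semaphorins, 2 rose, 3 fell and 8 were not called. Sema6d (Entrez 214968), a transmembrane ligand of Plxna1, fell about as far as Sema3c. Its level was 118.9, 111.5 and 122.6 CPM in wild type and 52.4, 52.4, 56.8 and 58.4 CPM in KAT7 mutant libraries. Both groups were tight and far apart, with a log2 fold change of -1.10 ± 0.06 (SE), 2.14-fold lower, and an edgeR adjusted p of 4.55e-11. The other Sema6 genes were not called. Sema6a, a ligand of Plxna2 and Plxna4, had a log2 fold change of -0.09 (95% interval -0.27 to 0.08), Sema6b 0.12 (-0.00 to 0.25) and Sema6c 0.06 (-0.15 to 0.26). Without KAT7 mutant replicate 1, Sema6b was called higher (0.16, edgeR adjusted p = 0.0425, in a range of 0.0425 to 0.362 across alternatives).

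The thrombospondin-repeat semaphorins Sema5a and Sema5b, which are known to bind Plxna1 and Plxna3, changed in opposite directions. Sema5a (Entrez 20356) stood at 46.0, 52.0 and 50.2 CPM in wild type and fell to 36.1, 27.5, 26.9 and 33.3 CPM in KAT7 mutant libraries. All mutant libraries were below all wild type ones (log2 fold change -0.68 ± 0.09 SE, edgeR adjusted p = 1.25e-05). Sema5b (Entrez 20357) stood at 25.8, 26.1 and 27.7 CPM in wild type and rose to 46.6, 44.2, 51.4 and 50.4 CPM. Its groups were also separate, with a log2 fold change of 0.86 ± 0.08 (SE), 1.81-fold higher, and an edgeR adjusted p of 7.09e-08.

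In the Sema4 class, Sema4f fell from 37.0 CPM (n = 3, SD 2.92) to 28.3 CPM (n = 4, SD 2.53), a log2 fold change of -0.39 (edgeR adjusted p = 0.00205). Sema4g was the most abundant membrane-bound semaphorin per kilobase that was not called. It stood at 172.3, 172.7 and 196.6 CPM in wild type and 161.5, 174.1, 156.9 and 192.6 CPM in KAT7 mutant libraries. Its groups overlapped, and its log2 fold change was -0.08 (95% interval -0.22 to 0.06). Sema4c, a ligand of Plxnb2, had a log2 fold change of 0.09 (-0.03 to 0.20) and Sema4b -0.02 (-0.16 to 0.13). Sema4d, the ligand of Plxnb1 and also an immune cell protein, missed the threshold at 0.20 (0.04 to 0.36, edgeR adjusted p = 0.0505). It was called with RLE size factors (0.21, adjusted p = 0.0457), with no count filter (0.20, adjusted p = 0.0266), without wild type replicate 3 (0.25, adjusted p = 0.042) and without KAT7 mutant replicate 1 (0.26, adjusted p = 0.00536), in a range of 0.00536 to 0.215 across alternatives. Sema4a was scarce, at 0.978 to 2.26 CPM over all libraries, and its interval was wide (-0.97 to 0.27).

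Sema7a, the GPI-anchored semaphorin that binds Plxnc1 and beta1 integrin, stood at 171 CPM (n = 3, SD 3.69) in wild type and 192 CPM (n = 4, SD 15.4) in KAT7 mutant libraries. It was called higher at the edge of the threshold (log2 fold change 0.16 ± 0.06 SE, edgeR adjusted p = 0.0428). The genotypes overlapped. The call was lost when any library other than KAT7 mutant replicate 1 was left out, with an edgeR adjusted p of 0.0743 to 0.16. It was also lost by DESeq2 (adjusted p = 0.0542) and, by edgeR, with library size only (adjusted p = 0.056) and the replicate number as a block (adjusted p = 0.108). The adjusted p ranged from 0.00263 to 0.16 across alternatives.

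Both neuropilins changed, in opposite directions. Nrp1 (Entrez 18186), the receptor of Sema3a and a co-receptor of VEGF-A, stood at 445.8, 478.8 and 437.6 CPM in wild type and fell to 227.8, 263.5, 278.9 and 296.1 CPM in KAT7 mutant libraries. The groups were separate, with a log2 fold change of -0.77 ± 0.07 (SE), 1.70-fold lower, and an edgeR adjusted p of 2.94e-08. Nrp2 (Entrez 18187), the receptor of Sema3f, stood at 140.1, 138.5 and 120.0 CPM in wild type and rose to 175.3, 157.8, 224.8 and 229.9 CPM. Its mutant libraries all lay above the wild type ones but were more spread, with replicates 3 and 4 high and replicate 2 nearest to wild type. The log2 fold change was 0.57 ± 0.10 (SE), 1.48-fold higher, with an edgeR adjusted p of 0.000204.

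The ratio between the neuropilins did not overlap between genotypes. The ratio of Nrp1 to Nrp2, both per kilobase, was 4.36, 4.74 and 5.001 in the wild type libraries and 1.78, 2.29, 1.70 and 1.77 in the KAT7 mutant libraries. Their summed level was 93.0 CPM per kilobase (n = 3, SD 4.63) in wild type and 69.3 CPM per kilobase (n = 4, SD 8.67) in KAT7 mutant libraries. The ratios of other pairs of relatives, chosen like this one after their values were seen, also did not overlap between genotypes. The ratio of Sema3c to Sema3a per kilobase was 10.8 to 11.7 in wild type and 3.62 to 4.23 in KAT7 mutant libraries. That of Sema5a to Sema5b was 0.752 to 0.839 and 0.221 to 0.326, and that of Sema6d to Sema6a 2.22 to 2.701 and 1.12 to 1.28. Of Sema6d and Sema6a only Sema6d was called. These ratios are descriptions and were not tested.

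**Figure D3:**
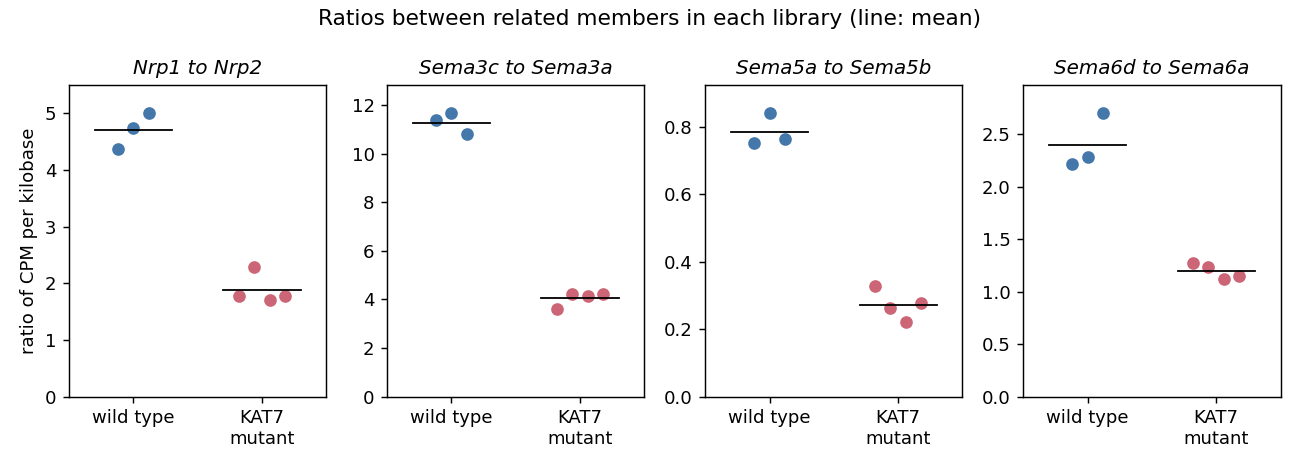
Ratio of the levels per kilobase (y axis, from 0) of 4 pairs of related members, with a point for each library and a line at the mean of each genotype. The wild type and KAT7 mutant points do not overlap in any panel; for Nrp1 to Nrp2 they lie at 4.36 to 5.001 and 1.70 to 2.29.

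Plxnd1 (Entrez 67784), the receptor of Sema3e and, with neuropilins, of Sema3c, had the largest change of the family. It stood at 67.5, 61.6 and 75.0 CPM in wild type and 171.3, 200.8, 207.2 and 208.2 CPM in KAT7 mutant libraries. The lowest mutant library was more than double the highest wild type library. The log2 fold change was 1.53 ± 0.07 (SE), 2.89-fold higher, with an edgeR adjusted p of 7.78e-12. Plxnd1 is also known from endothelial cells. The 8 endothelial markers had a summed level of 6.65 to 7.81 CPM in wild type and 6.97 to 9.41 CPM in KAT7 mutant libraries, Tie1 was at 0 in all libraries, and none of the 4 that were tested was called. Pecam1, the endothelial adhesion gene, came nearest to a call, at 0.713, 1.26 and 0.679 CPM in wild type and 2.57, 1.62, 1.65 and 1.10 CPM in KAT7 mutant libraries (log2 fold change 0.97, 95% interval 0.19 to 1.74, edgeR adjusted p = 0.0561). It was named after its values were seen, its groups overlapped, and the part of endothelial cells in the rise of Plxnd1 was not tested.

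Plxnc1 (Entrez 54712), the plexin that binds Sema7a, rose from 20.4, 24.4 and 21.0 CPM in wild type to 45.1, 35.1, 35.4 and 41.0 CPM in KAT7 mutant libraries. The groups were separate (log2 fold change 0.83 ± 0.10 SE, 1.78-fold higher, edgeR adjusted p = 2.67e-06). Plxnb2, a plexin of neural progenitors and a receptor of Sema4c, fell from 257 CPM (n = 3, SD 9.27) to 193 CPM (n = 4, SD 8.12), a log2 fold change of -0.41 ± 0.05 (SE, edgeR adjusted p = 2.82e-06). Plxnb1 was not called, with a log2 fold change of 0.03 (95% interval -0.11 to 0.17). Plxnb3 was under the filter, with 8 reads in all in wild type and 6 in KAT7 mutant libraries.

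The Plxna genes, which carry most of the signals of secreted and of Sema6 semaphorins, moved little. Plxna1 fell from 296 CPM (n = 3, SD 13.0) to 257 CPM (n = 4, SD 15.8), a log2 fold change of -0.21 (edgeR adjusted p = 0.00598). An annotated gene on the other strand shares 10.7% of the Plxna1 exon bases, and its reads cannot be separated here because the strand setting of the counting is not given. The same holds for 7.3% of the Sema4c and 2.7% of the Plxnb1 exon bases. Plxna2 was called higher (0.22 ± 0.07 SE, edgeR adjusted p = 0.0222), but its groups overlapped. That call was lost with any of 4 libraries left out, wild type 1 and 2 and KAT7 mutant 2 and 4 (adjusted p = 0.0647 to 0.088, in a range of 0.000223 to 0.088 across alternatives). Plxna4, the most abundant plexin per kilobase that was not called, stood at 844.2, 869.3 and 773.2 CPM in wild type and 775.3, 848.4, 804.2 and 888.0 CPM in KAT7 mutant libraries. These values overlapped throughout, and the interval of the log2 fold change was -0.11 to 0.11. Plxna3 had a log2 fold change of -0.11 (-0.24 to 0.01) and was called lower only without KAT7 mutant replicate 4 (-0.16, edgeR adjusted p = 0.0458, in a range of 0.0458 to 0.399 across alternatives).

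Levels per kilobase put these changes in order. In wild type libraries the receptors ran, from the highest, Plxna2 (89.4 CPM per kilobase), Nrp1 (76.7), Plxna4 (65.8), Plxna3 (45.1), Plxnb2 (39.2), Plxna1 (32.8), Nrp2 (16.4), Plxnb1 (12.7), Plxnd1 (9.85), Plxnc1 (3.12) and Plxnb3 (0.0513), with no overlap between neighbours in the order. In KAT7 mutant libraries Nrp1 (45.0) stood at rank 3 and overlapped Plxna3 (41.8). Plxnd1 stood at rank 6 in place of 9, with a level per kilobase of 28.5, and overlapped Plxnb2 (29.4) and Plxna1 (28.4). Plxnd1 made up 2.99% to 3.62% of the summed plexin level per kilobase in wild type and 8.42% to 9.86% in KAT7 mutant libraries.

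Among semaphorins Sema3c (109), Sema7a (52.3), Sema4g (42.0), Sema4c (33.6), Sema6b (22.2) and Sema6d (17.99 CPM per kilobase) led the wild type order, again with no overlap between neighbours. Next came Sema3f (14.4) and Sema4d (14.1), which overlapped. In KAT7 mutant libraries Sema7a (58.6) led, and its values overlapped those of Sema3c (49.5). Sema6d stood at rank 11 in place of 6, at 8.41 CPM per kilobase, and Sema5b at rank 10 in place of 14, at 10.6 CPM per kilobase. The ratio of the summed semaphorin level to the summed plexin and neuropilin level, both per kilobase, was 0.908 to 0.934 in wild type and 0.749 to 0.806 in KAT7 mutant libraries. The mean semaphorin sum was 361 CPM per kilobase in wild type and 303 in KAT7 mutant libraries. Sema3c alone fell by about as much as this sum, from 109 to 49.5 CPM per kilobase. The mean plexin and neuropilin sum was 391 and 386 CPM per kilobase.

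**Figure D4:**
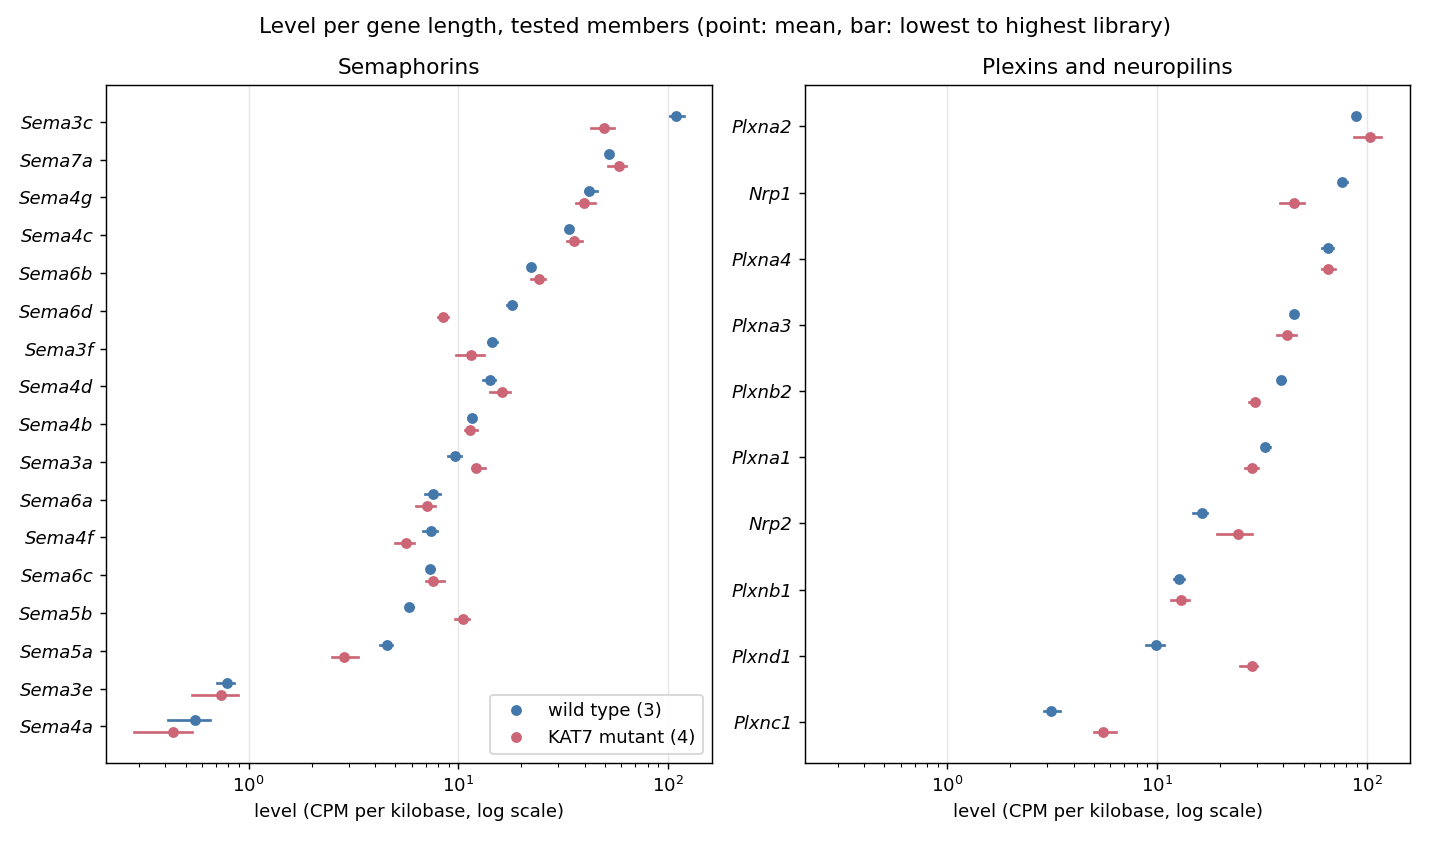
Level per kilobase of gene length (x axis, log scale) of the tested semaphorins and of the tested plexins and neuropilins, ordered by the wild type mean, with the mean as a point and the lowest and highest library as a bar. Sema3c leaves the top of the semaphorins at 109 and lies at 49.5 CPM per kilobase in KAT7 mutant libraries, and Plxnd1 moves from 9.85 to 28.5 CPM per kilobase.

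Known ligand and receptor pairs did not move in a common direction. Sema3c fell while Plxnd1, one of its plexins, and Nrp2 rose and Nrp1 fell. Sema3a rose and its receptor Nrp1 fell. Sema3f fell and its receptor Nrp2 rose. Sema6d and its receptor Plxna1 both fell, with log2 fold changes of -1.10 and -0.21. Sema7a and Plxnc1 were both called higher, at 0.16 and 0.83, but the Sema7a call was kept in only 6 of 15 alternatives. Sema3e was not called, whereas its receptor Plxnd1 rose by 1.53. Sema4c was not called, and its receptor Plxnb2 fell by 0.41. Sema5a fell and Sema5b rose, while of their receptors Plxna1 fell and Plxna3 was not called. Neither Sema4d nor its receptor Plxnb1 was called. Sema6a was not called, and of its receptors Plxna2 was called higher and Plxna4 was not called.

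Beyond the family, 4 lists of pathway genes were counted, beside 28.9% of all tested genes called (13.1% higher and 15.8% lower). Of 8 tested co-receptors and other semaphorin receptors, 2 rose, 1 fell and 5 were not called, at a median log2 fold change of 0.01, and Timd2 was at 0 in every library. Met, the receptor tyrosine kinase that couples to Plxnb1, fell by 0.91 on the log2 scale (edgeR adjusted p = 3.25e-06). The cell adhesion genes Chl1 and Nrcam, which pair with neuropilins, rose by 0.22 and 0.18. Of 28 tested intracellular effectors, 3 rose, 6 fell and 19 were not called, at a median of 0.02. Mical2, of the family of actin-oxidising enzymes downstream of plexins, fell from 31.6 CPM (n = 3, SD 4.70) to 17.2 CPM (n = 4, SD 3.10), a log2 fold change of -0.87. Its relative Mical3 rose by 0.35. Farp2, an exchange factor that binds plexins, fell by 0.44 and the cofilin kinase Limk1 by 0.31, while the small GTPase Rnd1 rose by 0.39 and Cdk5r1, the activator of Cdk5, by 0.23.

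Of 7 proteases that cleave semaphorins, or that belong to families that do, 0 rose and 3 fell by edgeR, at a median of -0.33. Pcsk5, a proprotein convertase, fell from 15.2 CPM (n = 3, SD 2.13) to 7.29 CPM (n = 4, SD 1.18), a log2 fold change of -1.05. Mmp14 fell by 0.67 and Adam17 by 0.50. Of 7 tested VEGF ligands and receptors, which share neuropilins with semaphorins, only Vegfb was called and fell by 0.46, at a list median of -0.14.

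**Figure D5:**
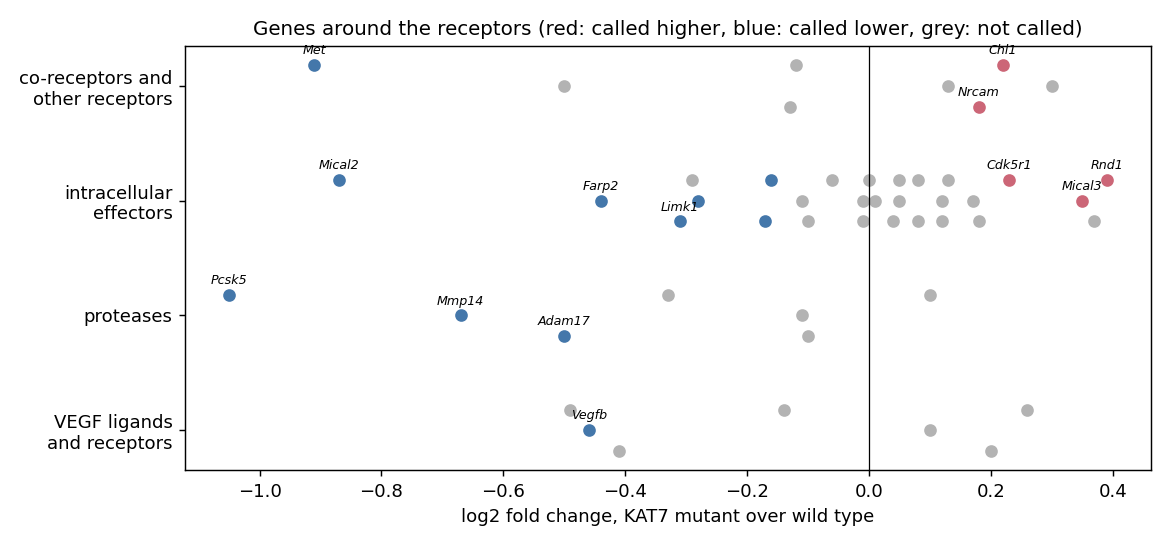
Log2 fold change (x axis, KAT7 mutant over wild type) of each tested gene in 4 lists around the receptors, with the genes named in the text labelled; the height of a point within its list carries no meaning. The proteases have no red point, and their 3 called members lie at -1.05, -0.67 and -0.50.

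Some markers of other cells also differed between the genotypes, and their part in the results above was not tested. The counts below stand beside 28.9% of all tested genes called (13.1% higher and 15.8% lower). Of the radial glia markers 6 of 9 tested fell and 0 rose by edgeR. Their summed level was 295.8 to 326.4 CPM in wild type and 197.2 to 247.4 CPM in KAT7 mutant libraries. Plxnb2, a plexin of neural progenitors, also fell. Of the interneuron markers 6 of 11 rose, 1 fell and 4 were not called, with summed levels of 328.8 to 516.8 and 435.9 to 555.8 CPM. Nrp2, which migrating interneurons express, also rose, but the mutant libraries did not rank alike for both. KAT7 mutant replicate 1 had the highest interneuron sum, 555.8 CPM, with Nrp2 at 175.3 CPM. KAT7 mutant replicate 4 had the highest Nrp2, 229.9 CPM, with a sum of 443.5 CPM. Of the upper layer markers 1 of 8 rose and 5 fell (2226 to 2331 and 1802 to 1967 CPM), and of the deep layer markers 4 of 8 rose and 3 fell (1103 to 1334 and 1291 to 1340 CPM). Of the oligodendrocyte lineage markers 4 of 8 rose and 1 fell (34.2 to 39.9 and 38.3 to 56.7 CPM). Of the microglia markers 4 of 6 rose and 0 fell (17.2 to 20.3 and 27.2 to 36.03 CPM). Tie1 was the only marker of these lists at 0 in every library.

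The remaining marker lists were intermediate progenitors (0 rose and 3 fell of 5 tested), Cajal-Retzius cells (2 and 1 of 7), astrocytes (0 and 2 of 4), pericytes (0 and 1 of 2) and cortical glutamatergic neurons (2 and 3 of 10). These small counts also stand beside 28.9% of all tested genes called. None was called of 2 tested meningeal, 1 choroid plexus and 4 red blood cell markers. Their summed levels were 5.75 to 7.84 CPM over all libraries for meningeal fibroblasts, 0.831 to 23.0 CPM for choroid plexus and 22.2 to 162.4 CPM for red blood cells.

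Neighbours on the chromosome were read from the order of genes in GRCm38.p6. Of the 30 nearest tested protein-coding genes on either side of the 15 called members, 8 were called in the direction of the member, 4 in the other direction and 18 were not called, beside 28.9% called of all tested genes (13.1% higher and 15.8% lower). Sema3a, which rose, and Sema3e, which was not called, are neighbours in that order.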

How the data were processed

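PolyA RNA was sequenced from cortical neurons of 3 wild type and 4 KAT7 mutant embryos, which the design text gives as separate mice. The authors deposited whole-number read counts per gene with a gene length in bases. Per the submitters' processing notes, featureCounts did the counting and mm9 is listed as the build. Aligner, annotation release and strand are not given in the sources here. Symbols came from an NCBI table of GRCm38.p6 by Entrez identifier (24176 of 26286, or 92%, matched), used for names, gene order and promoter windows only. Exon overlaps were read from a GENCODE annotation of GRCm38.

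Genes were filtered with filterByExpr of edgeR (version 4.0.16, R version 4.3.3; minimum count 10), which left 13681. Genotypes were compared with the two-sided quasi-likelihood test after TMM scaling, adjusted by Benjamini-Hochberg over all tested genes and called under 0.05. SE was obtained as the absolute log2 fold change divided by the root of F. CPM are TMM-scaled. CPM per kilobase divide by the deposited gene length. The fit was tested on simulated data. Alternatives were RLE, upper-quartile or no factors, other filters (none, and 3 libraries at 1 CPM or more), limma-voom (limma version 3.58.1), DESeq2 (version 1.42.0), the replicate number as a block and each library left out. Both other filters were looser than the main one, with 20196 and 13939 genes tested.

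The members, the 4 pathway lists and the 15 marker lists were chosen with earlier results of these data known. Values in every library are given for called members with a log2 fold change of at least 0.5 in size and for the most abundant uncalled member of each role. Up to 3 called genes per direction are named from each pathway list, and marker lists are given as counts and sums. The class of genes of at least 20 CPM, the ratios, and the library values of Sema3a were chosen after the values were seen.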

Additional observations from a re-analysis of the deposited data

Results flagged for a closer look

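In 63 sets of 4 KAT7 mutant values, each for a gene, a sum or a ratio, 7 had a library far from the others relative to their range, and chance alone marks about 1 set in 20. KAT7 mutant replicate 1 stood apart in 4 of them. Its Sema3d level was 0.935 CPM against 0.244 to 0.354 CPM, and its ratio of Sema3c to Sema3a per kilobase was 3.62 against 4.15 to 4.23. Plxna2 and Plxna4 together made up 50.5% of its summed plexin level per kilobase against 54.6% to 54.7%. Its level of Chl1, a cell adhesion gene, was 908 CPM against 1032 to 1048 CPM. KAT7 mutant replicate 2 had the ratio of Nrp1 to Nrp2 of 2.29, against 1.70 to 1.78. KAT7 mutant replicate 3 had 31.7 CPM of Mmp14, against 39.4 to 40.6 CPM. KAT7 mutant replicate 4 had 1.22 CPM of Kat7, against 0.350 to 0.464 CPM.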

How the results depend on the processing

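Of the 15 called members, 13 kept direction and call under every alternative run; the others were Sema7a and Plxna2, given above. The replicate numbers did not pair the libraries: the deviations of same-numbered libraries correlated at 0.018, 0.012 and -0.029. With the replicate number as a block 1460 genes were higher and 1943 lower, Sema7a (0.15, adjusted p = 0.108) and Plxna2 (0.15, adjusted p = 0.0762) lost their calls, and the semaphorin median was -0.14. Under the block Plxna4 (-0.03), Plxnb1 (-0.02), Sema4b (0.0076) and Sema6c (-0.0017) changed sign, none being called. Replicate number 4 occurs only among the KAT7 mutant libraries, so under the block that library adds nothing to the genotype difference. With no block and KAT7 mutant replicate 4 left out, the semaphorin median was also -0.14. Plxna4 (-0.03), Plxnb1 (-0.02), Sema4b (0.0081) and Sema6c (-0.0017) then lay at or close to their values under the block. Plxna4 was also below 0 with upper-quartile factors (-0.0057), library size only (-0.01), no count filter (-0.0039), a CPM of at least 1 in 3 libraries (-0.0024) and limma-voom (-4.2e-05). With 1 library left out, semaphorins called higher numbered 2 to 5, and the semaphorin median was -0.14 to -0.01. Plxna4 ranged from -0.05 to 0.03, Plxnb1 from -0.02 to 0.07, Sema3e from -0.21 to 0.02, Sema4b from -0.06 to 0.0081 and Sema6c from -0.0017 to 0.09. DESeq2 called 1362 genes higher and 1715 lower. The cause of the shifts other than those under the block was not tested. Sema3b, Sema3d, Sema3g and Plxnb3 had 0 to 12 reads a library, too few to test here.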
